A study of Mus musculus with 6 samples.

Results

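Leukaemia inhibitory factor (LIF) is the cytokine that keeps mouse embryonic stem (ES) cells undifferentiated in culture, and 8 genes of its signalling route were described here: the receptor genes Lifr and Il6st, the kinase genes Jak1 and Jak2, the transcription factor gene Stat3, and the target genes Socs3, Tfcp2l1 and Pim1. They are picked by gene symbol, a rule that uses no measured value, although earlier results of these data were known when the genes were chosen, and all 8 were found among the 10128 genes of the authors' deposited table. RNA sequencing compared 3 libraries of Tex19.1+/- ES cells with 3 libraries of Tex19.1-/- ES cells. Both genotypes derive from E14Tg2a, a mouse ES line labelled as 129/Ola, at passages 12 to 18. Both were grown in gelatinised flasks in medium with 10% foetal calf serum and 0.2% LIF-conditioned medium, so LIF was supplied to every culture. Tex19.1 is active in the germline, the placenta and pluripotent cells, and its protein partners with the ubiquitin ligase UBR2. The labels do not say whether the 3 libraries of a genotype came from separate clones or cultures, so p-values measure only the spread between these samples, which may be technical, and clone and genotype cannot be told apart.

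LIF binds the receptor LIFR, which pairs with the shared signalling subunit gp130, the product of Il6st. Janus kinases bound to the receptor tails phosphorylate both chains and the factor STAT3, which then enters the nucleus and switches on its targets. One target, SOCS3, blocks the receptor and kinases in return, while TFCP2L1 is a main carrier of the self-renewal signal in mouse ES cells and PIM1 is a kinase that favours survival and growth.

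The starts of the 3 target genes are shown because STAT factors can bind such stretches. RefSeq windows from 250 bases before to 50 bases after the gene start (GRCm38.p6) were matched by symbol for all 8 genes, 10 windows in total. They were searched for TTCNNNGAA, the general form of a STAT binding motif, which reads the same on both strands, and for TTCCNGGAA, a stricter form that is contained in it. Capitals mark a match to TTCNNNGAA.
Socs3, chr11:117969317-117969616, minus strand: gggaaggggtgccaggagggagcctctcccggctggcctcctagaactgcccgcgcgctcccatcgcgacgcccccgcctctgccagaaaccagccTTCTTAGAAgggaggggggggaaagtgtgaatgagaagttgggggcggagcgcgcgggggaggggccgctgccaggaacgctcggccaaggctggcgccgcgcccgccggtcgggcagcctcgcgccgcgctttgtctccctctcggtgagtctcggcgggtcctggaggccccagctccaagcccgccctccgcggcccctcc
Tfcp2l1, chr1:118627695-118627994, plus strand: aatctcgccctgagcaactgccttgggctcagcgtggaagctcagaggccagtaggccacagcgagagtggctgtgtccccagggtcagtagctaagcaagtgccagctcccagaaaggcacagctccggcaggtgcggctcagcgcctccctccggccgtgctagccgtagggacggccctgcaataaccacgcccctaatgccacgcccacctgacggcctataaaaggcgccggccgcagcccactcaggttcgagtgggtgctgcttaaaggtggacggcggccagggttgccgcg
Pim1, first of its 2 windows, chr17:29490535-29490834, plus strand: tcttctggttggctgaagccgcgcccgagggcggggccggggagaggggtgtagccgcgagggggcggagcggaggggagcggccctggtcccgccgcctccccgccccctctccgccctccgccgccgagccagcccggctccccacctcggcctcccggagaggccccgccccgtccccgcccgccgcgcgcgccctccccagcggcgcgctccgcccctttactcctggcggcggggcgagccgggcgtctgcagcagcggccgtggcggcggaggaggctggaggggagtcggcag
Socs3 was the only one of the 8 genes with a match, TTCTTAGAA, whose first base lies 154 bases before the RefSeq start of the gene. GENCODE places the start of Socs3 681 bases further upstream, so by that annotation the match lies inside the gene, 527 bases after its start. The 2 RefSeq starts of Lifr lie 38958 and 49928 bases after its GENCODE start. The GENCODE starts of Socs3 and Lifr were thus outside the windows searched. The stricter form was in none of the 10 windows. Of 32544 distinct windows of this length in the RefSeq table, 8.33% held TTCNNNGAA and 1.16% held TTCCNGGAA, and among the 9781 windows of genes measured here the shares were 6.50% and 1.13%. A match is a description of letters, and no binding was measured.

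All 8 genes were expressed, and the targets stood at the highest levels per length. The table gives 1 mean over the libraries per gene as log2 CPM (reads of the gene relative to all reads of a library). To compare genes, this mean was converted from log2 to CPM and then divided by the exon sequence of the gene in kb. On that scale Tfcp2l1 had a level of 35.1 CPM per kb, Pim1 of 26.9 and Socs3 of 18.1. The signalling genes followed with Stat3 at 10.9, Il6st at 9.67, Lifr at 7.71 and Jak1 at 7.67 CPM per kb. Jak2 was far lower, at 1.22 CPM per kb. Without values per library no spread can be set beside these levels, so whether neighbours in this order differ was not tested.

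**Figure D1:**
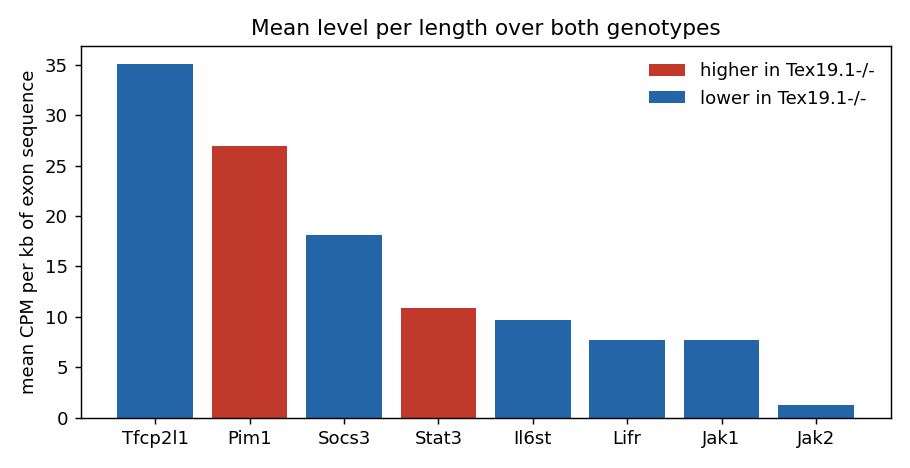
Mean level of the 8 genes in CPM per kb of exon sequence (vertical axis), ordered from highest to lowest. Each bar is 1 mean over both genotypes from the authors' table, with no error bar because no spread is given; colour shows the direction of the difference between genotypes, and Jak2 stands lowest at 1.22 CPM per kb.

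Fold changes are read as Tex19.1-/- over Tex19.1+/-. The header does not name the direction; it was taken from Tex19.1 itself, which had a log2 fold change of -6.92 per the authors' deposited table, leaving 0.83% of the heterozygous level, so this gene is no independent check of the labels. Every one of the 8 genes passed an adjusted p of 0.05 in the authors' deposited table, where 51.7% of all genes did. Lower in Tex19.1-/- cells were 6 of the 8, against 26.5% of all genes, and 2 were higher, against 25.2%. The changes were small. The median size of the log2 fold change was 0.24 for the 8 genes, 0.11 for all genes and 0.22 for all genes that passed. Only Jak2 both passed and changed by at least 0.32 on the log2 scale, which 15.0% of all genes did, 10.1% as a fall. No member reached a change of 2-fold, which 1.46% of all genes did. In the plot of fold change against mean expression, 6 of the 8 points lie below the line of no change.

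**Figure D2:**
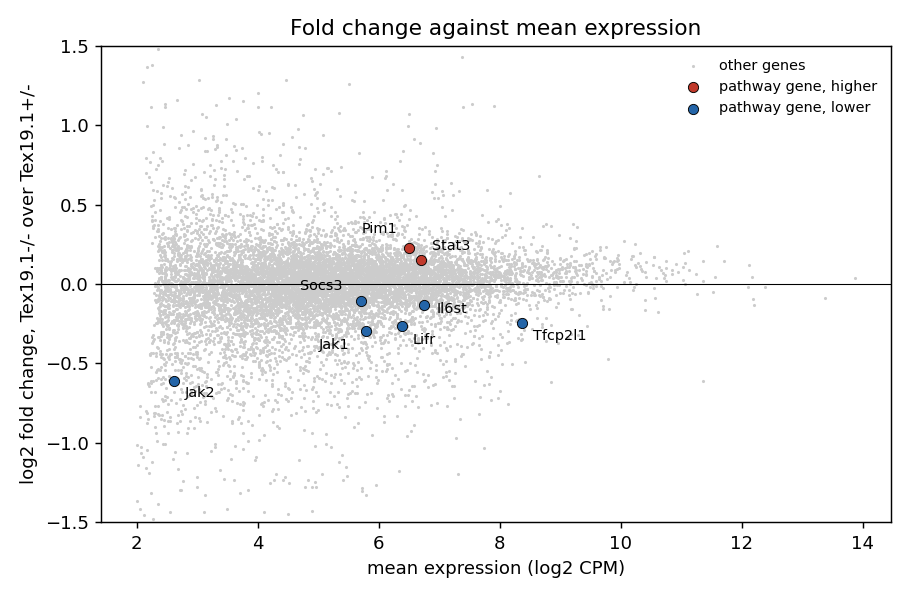
Log2 fold change of Tex19.1-/- over Tex19.1+/- (vertical axis) against mean expression in log2 CPM (horizontal axis), from the authors' table. Grey points are other genes, coloured points the 8 pathway genes, 6 lower and 2 higher; 46 genes beyond 1.5 in either direction are not drawn.

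Both receptor chains were lower in Tex19.1-/- cells. Lifr, the LIF-binding chain (ENSMUSG00000054263.12, chromosome 15, 7090614 to 7197489, plus strand, GRCm38), had a mean of 83.1 CPM and a log2 fold change of -0.26 per the authors' deposited table (edgeR, adjusted p = 2.86e-10). Its level was 83.4% of the heterozygous one. Il6st (ENSMUSG00000021756.12, chromosome 13, 112464070 to 112510086, plus strand) had a mean of 107 CPM and a log2 fold change of -0.13 per the authors' deposited table (edgeR, adjusted p = 0.001), which is 91.1% of the heterozygous level. Whether the falls of Lifr and Il6st differ from each other was not tested. Il6st lost its call when the dependence of fold changes on transcript GC and length was removed (log2 fold change -0.08, adjusted p = 0.0502).

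Besides Lifr and Il6st, 6 receptor and co-receptor genes of the gp130 family were listed and 2 of them, Cntfr and Il11ra1, were measured. Both were lower in the authors' deposited table, as were 26.5% of all genes. Cntfr and Il11ra1 lie close together on chromosome 4, at 41657498 to 41697089 and 41699989 to 41769474. Whether their falls are linked was not tested. The largest change of the whole pathway was that of Cntfr, which encodes the chain that binds ciliary neurotrophic factor and works together with LIFR and gp130. Cntfr stood at -1.45 (edgeR, adjusted p = 1.32e-129), or 36.6% of the heterozygous level, and ranked 50 of 10128 genes by size of change. Il11ra1, the receptor chain for interleukin 11, was at -0.34 in the authors' deposited table (edgeR, adjusted p = 6.35e-05). Among 8 ligand genes of this receptor family only Lif was measured, with a mean of 5.12 CPM and a log2 fold change of -0.22 per the authors' deposited table (edgeR, adjusted p = 0.0199). The call of Lif was lost at an adjusted p of 0.01 and with the trend on mean expression removed (log2 fold change -0.16, adjusted p = 0.0984).

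Jak2 showed the largest change of the 8 genes. JAK1 is the kinase on which gp130 signalling mainly relies, and JAK2 can act beside it. Jak2 (ENSMUSG00000024789.13, chromosome 19, 29251828 to 29313080, plus strand) had a mean of 6.12 CPM and a log2 fold change of -0.61 per the authors' deposited table (edgeR, adjusted p = 2.73e-13). This is 65.6% of the heterozygous level and places Jak2 at rank 522, among the 5.15% of genes that changed most. Fold changes of low genes spread more widely: of the 200 genes nearest to Jak2 in mean expression, 15 changed at least as much, and their median size was 0.21. Jak1 (ENSMUSG00000028530.14, chromosome 4, 101152367 to 101265282, minus strand) had a mean of 55.4 CPM and stood at -0.29 (edgeR, adjusted p = 4.59e-13), or 81.5% of the heterozygous level. Of the 200 genes nearest to Jak1 in mean expression, 24 changed at least as much.

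Exons of Jak1 overlap those of Raver2 on the opposite strand, a gene that was higher at 0.40 in the authors' deposited table (edgeR, adjusted p = 6.84e-11). The libraries were stranded, but the strand setting of the counting is not given in the sources used here, so reads from the shared stretch cannot be assigned with certainty. Of the 4 Janus kinase genes, all measured, 3 were lower, where 26.5% of all genes were, and Jak3 did not pass. Tyk2 stood at -0.34 (edgeR, adjusted p = 2.76e-15) and Jak3 at -0.03 (edgeR, adjusted p = 0.65) in the authors' deposited table. Per length, the levels of Tyk2 and Jak1 were 7.78 and 7.67 CPM per kb, that of Jak3 5.06 and that of Jak2 1.22.

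Stat3, in contrast, was slightly higher without Tex19.1. Stat3 (ENSMUSG00000004040.16, chromosome 11, 100885098 to 100939540, minus strand) had a mean of 104 CPM and a log2 fold change of 0.15 per the authors' deposited table (edgeR, adjusted p = 8.61e-05), or 111% of the heterozygous level. Genes beside it moved the same way. Of the 10 nearest measured genes on each side of Stat3, a stretch of 0.908 Mb, 14 were higher and 2 lower, and their median log2 fold change of 0.18 was above that of Stat3 itself. As many as 13 of these 20 neighbours changed at least as much as Stat3, and all 796 measured genes of chromosome 11 had a median of 0.07. The part of this stretch in the value of Stat3 was not tested. Stat3 exons overlap those of Stat5a on the opposite strand, a gene that was not among those measured.

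The other STAT genes went in both directions. Stat4 was at 0.41 (edgeR, adjusted p = 6.24e-07) and Stat6, the factor of interleukin 4 signalling, at -0.36 (edgeR, adjusted p = 1.94e-14) in the authors' deposited table. Stat2, a factor of interferon signalling, had a log2 fold change of -0.02 there and did not pass (edgeR, adjusted p = 0.765). Per length the level of Stat3 was 10.9 CPM per kb, followed by Stat6 at 9.17, Stat2 at 2.58 and Stat4 at 1.71.

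**Figure D3:**
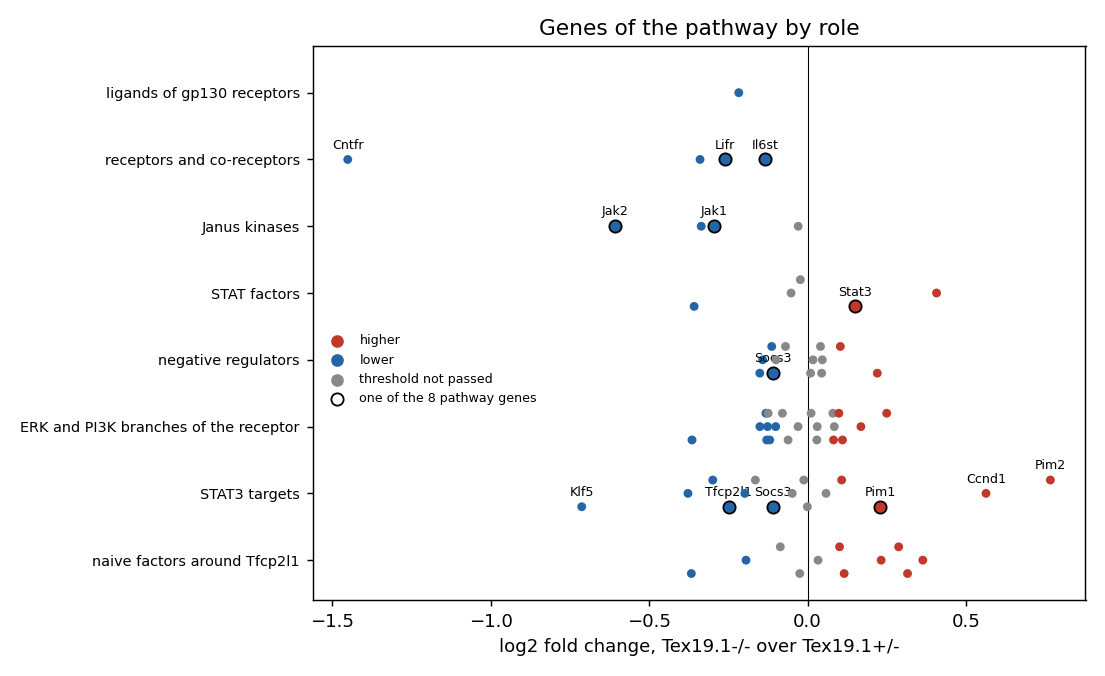
Log2 fold changes of the measured genes of the pathway (horizontal axis), grouped by role (rows), from the authors' table. Each point is 1 gene, red where higher, blue where lower and grey where the threshold was not passed; outlined points are the 8 pathway genes, and the receptor row runs from -1.45 for Cntfr to -0.13 for Il6st.

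The 3 targets did not share a direction. Tfcp2l1 (ENSMUSG00000026380.10, chromosome 1, 118627945 to 118685168, plus strand) had a mean of 331 CPM and a log2 fold change of -0.25 per the authors' deposited table (edgeR, adjusted p = 1.31e-07), or 84.2% of the heterozygous level. Of the 200 genes nearest to it in mean expression, 22 changed at least as much. Pim1 (ENSMUSG00000024014.8, chromosome 17, 29490753 to 29496112, plus strand) had a mean of 90.5 CPM and was higher at 0.23 in the authors' deposited table (edgeR, adjusted p = 3e-06), or 117% of the heterozygous level. Its exons overlap an antisense gene, Gm26885, that was not among those measured. Socs3 (ENSMUSG00000053113.3, chromosome 11, 117966079 to 117970047, minus strand) had a mean of 52.5 CPM and the smallest change of the 8, at -0.11 in the authors' deposited table (edgeR, adjusted p = 0.0349), or 92.8% of the heterozygous level.

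The change of Socs3 was no larger than that of a typical gene: 51.9% of all genes changed at least as much, as did 104 of the 200 genes nearest to it in mean expression. Its call was lost at an adjusted p of 0.01 and with the dependence on transcript GC and length removed (log2 fold change -0.10, adjusted p = 0.0582). Socs3 lies 3.18 Mb from Tex19.1 on the same chromosome, with 44 measured genes between them, of which 9 were higher and 10 lower, with a median of 0.01. Of its 20 nearest measured neighbours, 8 were lower and 3 higher, with a median of -0.07.

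The other STAT3 targets also held both rises and falls. Of the 15 listed targets other than Socs3, Tfcp2l1 and Pim1, 12 were measured, with 3 higher, 4 lower and 5 that did not pass in the authors' deposited table. The median log2 fold change of these 12 was -0.03, and their 7 calls of 12 stand beside 51.7% of all genes. Klf5, a Krüppel-like factor of naive cells, was lowest at -0.71 (edgeR, adjusted p = 7.78e-82) and the homeobox gene Gbx2 stood at -0.38 (edgeR, adjusted p = 9.82e-15). Pim2, a relative of Pim1 on the X chromosome, was highest at 0.77 (edgeR, adjusted p = 1.55e-17), followed by the cyclin D1 gene Ccnd1 at 0.56 (edgeR, adjusted p = 1.04e-46). The other members that passed, chosen after their values were seen, were Myc at -0.30, Klf4 at -0.20 and Bcl3 at 0.11 in the authors' deposited table. Of the Pim kinase genes, Pim1 and Pim2 were thus higher, and Pim3, likewise chosen after its value was seen, stood at 0.06 there and did not pass (edgeR, adjusted p = 0.206).

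The listed factors that work with TFCP2L1 in naive cells were all measured. Of these 11 genes 6 were higher, 2 lower and 3 did not pass, where 25.2% of all genes were higher and 26.5% lower. The median log2 fold change of the 11 was 0.10, and they ran from -0.37 for Tbx3 to 0.36 for Zfp42 in the authors' deposited table. Klf2, a factor that maintains naive cells, was at 0.32 (edgeR, adjusted p = 5.93e-14) and Sox2 at 0.23 (edgeR, adjusted p = 5.86e-09). Tfcp2l1 at -0.25 thus lay on the side of Tbx3 and of Nr0b1, chosen after its value was seen, at -0.19 in the authors' deposited table. The 6 higher genes lay on the other side, and no difference between these genes was tested. Klf4, Klf5 and Gbx2, all lower, were counted among the STAT3 targets and not among these 11.

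Negative regulators passed in both directions. Of 15 listed besides Socs3, 12 were measured, 2 of them higher, 3 lower and 7 not past the threshold, with a median log2 fold change of 0.01. These 5 of 12 stand beside the 51.7% of all genes that passed. Socs2, a feedback inhibitor of growth hormone signalling, stood at 0.22 (edgeR, adjusted p = 6.21e-08), while Socs4 at -0.14 and the STAT inhibitor gene Pias1 at -0.15 were lower in the authors' deposited table. Pias2 stood at 0.10 (edgeR, adjusted p = 0.0118), a call that was lost at an adjusted p of 0.01 and with the trend on mean expression removed (log2 fold change 0.08, adjusted p = 0.0741). The ERK and PI3K branches, which LIF receptors also feed through the adaptor GRB2, were measured in full: 5 of 21 genes were higher, 7 lower and 9 did not pass, with a median of -0.03. Braf at -0.36 and Pik3cb at 0.25 had the smallest p-values there, followed by Nras at 0.17 and Grb2 at -0.15 in the authors' deposited table. Over all 65 measured genes of the pathway lists outside the 8, 17 were higher, 21 lower and 27 did not pass. Their median was -0.03 and their median size 0.11, the latter the same as that of all genes. For these counts and those of the ERK and PI3K branches, the shares over all genes were 25.2% higher and 26.5% lower.

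The genes beside each of the 8 were compared in the same way, and the largest share of neighbours that moved one way was the one at Stat3. Lifr has 16 measured neighbours within the same count on each side, because it lies near the start of its chromosome, and 9 of them were higher, 3 lower, with a median of 0.10, opposite in sign to Lifr. The endoderm gene Dab2, chosen after its value was seen, is the nearest but one measured gene on one side of Lifr and stood at -1.80 in the authors' deposited table. Around Jak2 8 of 20 neighbours were higher and 5 lower, with a median of 0.04, and 1 changed at least as much as Jak2. Around Jak1 the median was -0.02, around Il6st and Tfcp2l1 0.02, and around Pim1 -0.05. Single neighbours with large changes were not limited to Lifr. The lowest stood at -1.42 beside Pim1 and -1.21 beside Tfcp2l1, and the highest at 1.00 beside Il6st.

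**Figure D4:**
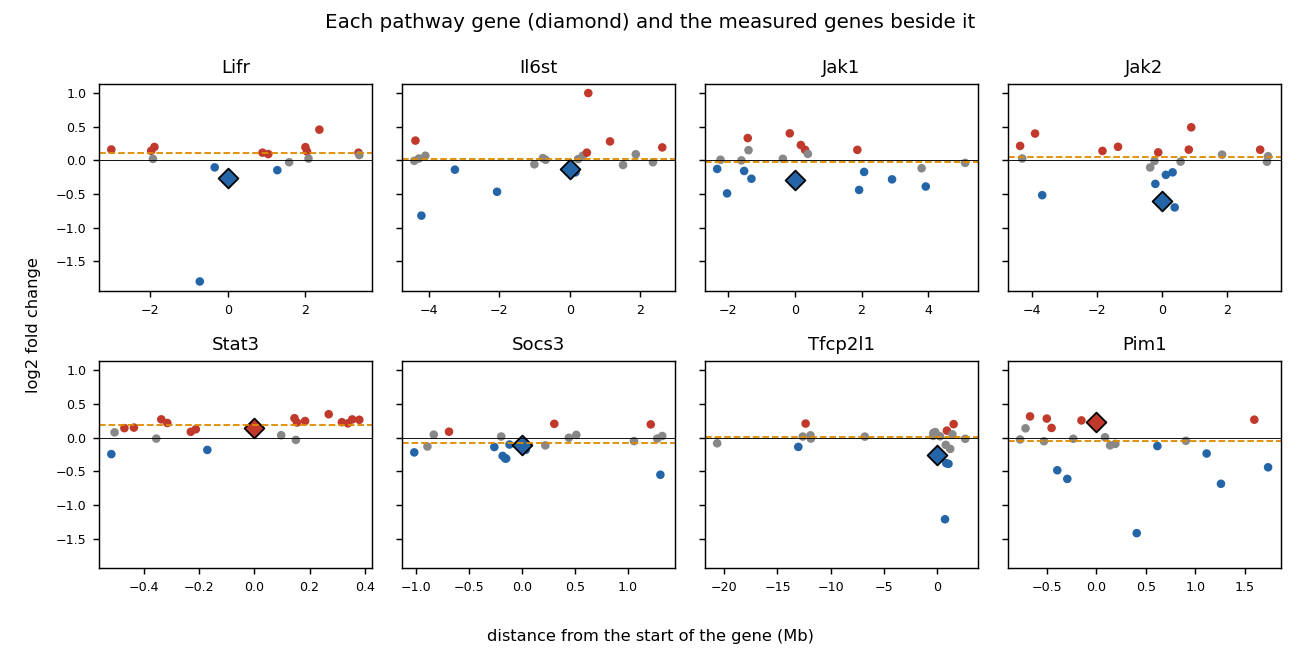
Log2 fold change (vertical axis) of each of the 8 genes (diamond) and of up to 10 measured genes on each side of it, by distance in Mb from the start of the gene in genome direction (horizontal axis, scaled for each panel). Red points were higher, blue lower and grey not past the threshold; the dashed line is the median of the neighbours, which lies at 0.18 beside Stat3.

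Markers of other cell types were read from the same table, in which 25.2% of all genes were higher and 26.5% lower. All 10 listed ES cell markers were measured, with a summed mean of 6447 CPM, 4 of them higher, 3 lower and 3 not past the threshold, from -0.17 to 0.36. Of 15 primitive endoderm markers 11 were measured, with a summed mean of 765 CPM, and all 11 were lower, from -2.93 to -0.56 with a median of -2.01, beside which the falls of Lifr, Il6st, Jak1, Jak2, Tfcp2l1 and Cntfr stand. In bulk samples fewer cells of a type and less RNA per cell cannot be told apart, the table gives no summed level per genotype, and the part of endoderm markers in these falls was not tested. Of 10 fibroblast markers only Fn1 and Vim were measured, at 0.23 and -0.33 in the authors' deposited table, and of 7 trophoblast markers 4 were measured, 1 higher and 1 lower.

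Directions of the 8 genes held with a trend on mean expression removed and with the dependence on transcript GC and length removed. They also held with the median of all genes subtracted. That setting could not turn any of them, because the median was 0.003 and the smallest change, of Socs3, was -0.11. The ranges of the log2 fold change over all settings were -0.61 to -0.56 for Jak2, -0.30 to -0.28 for Jak1, -0.28 to -0.21 for Lifr and -0.29 to -0.19 for Tfcp2l1. Stat3 ran from 0.13 to 0.18 and Pim1 from 0.21 to 0.24.

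**Figure D5:**
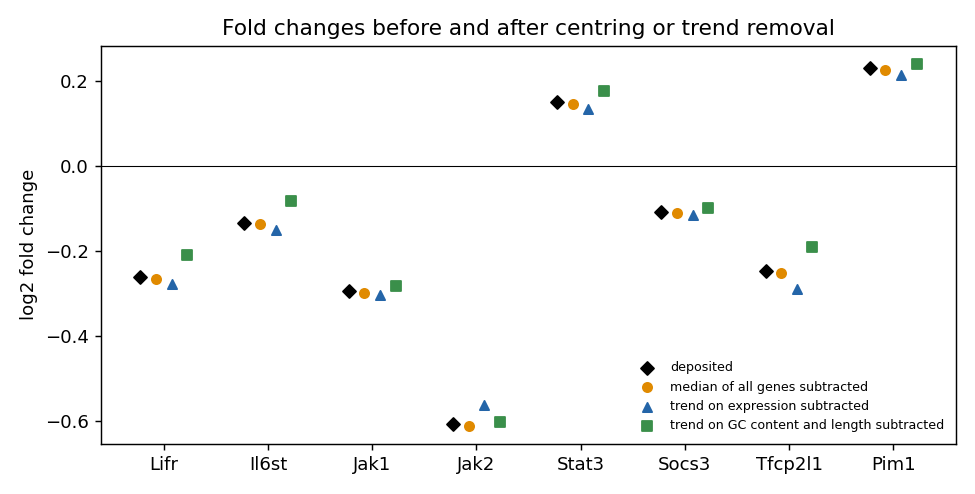
Log2 fold change of the 8 genes (vertical axis) as deposited (black diamonds), with the median of all genes subtracted (orange circles), and with a trend on expression (blue triangles) or on transcript GC and length (green squares) removed. Every gene stays on its side of 0 in all 4 versions, from -0.61 for Jak2 to 0.24 for Pim1.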

How the data were processed

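Cells were lysed with TRIzol, and stranded TruSeq mRNA libraries were read in pairs on a HiSeq sequencer, per the labels' protocols. HTSeq 0.11.2, TopHat2 2.1.0, Trim Galore 0.4.1, edgeR and mm10 are named per the submitters' processing notes; the annotation, edgeR version and test form are not given in the sources used. For each of 10128 genes the deposited table holds a log2 fold change, a mean log2 CPM, a p-value and an adjusted p-value, all made by the authors, per the file headers; the lowest mean was 3.52 CPM. Values and depth per library were not used here, so no spread is given, and the planned count fits could not be applied. Calls use the authors' adjusted p under 0.05. Genes named beyond the 8 are the 4 with the smallest p-value of each of 8 pathway lists, and all of lists with at most 8 measured genes; a gene that this rule would name is not reported here. Members and lists were chosen with earlier results of these data known. Positions and exon lengths come from GENCODE M21 (GRCm38, the assembly of mm10), which held 9587 of the symbols. For centring and trends (lowess, span 0.3, statsmodels 0.14.6), p was recomputed from the standard error that the deposited p-value and fold change imply, a normal approximation that was not checked against the authors' test.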

Additional observations from a re-analysis of the deposited data

How the results depend on the processing

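No paired analysis was possible because the deposited columns carry no values per library; for the same reason leaving out single libraries, DESeq2 and another filter on counts were not run. Of the 8 pathway genes 7 passed at an adjusted p of 0.01, without Socs3 (log2 fold change -0.11). With Bonferroni adjustment 5 passed, 1 of them higher, without Il6st (-0.13), Stat3 (0.15) and Socs3 (-0.11). With the dependence on transcript GC and length removed 6 passed, without Il6st (-0.083) and Socs3 (-0.10); the cause was not tested. When a change of at least 0.32 on the log2 scale was also asked, 1 passed, as a fall, and 0 as a rise: Lifr (-0.26), Il6st (-0.13), Jak1 (-0.29), Stat3 (0.15), Socs3 (-0.11), Tfcp2l1 (-0.25) and Pim1 (0.23) are smaller than that, although their adjusted p is unchanged by construction. Of all 10128 genes, 5236 (51.7%) passed as deposited, 4187 at an adjusted p of 0.01 and 2413 with Bonferroni adjustment. With a change of at least 0.32 also asked 1522 of them passed, and with the dependence on transcript GC and length removed 4819 of 9587. Of the 65 other pathway genes, 38 passed as deposited. Bonferroni left 20 of them, 10 higher and 10 lower, and that least change left 12, 4 higher and 8 lower. An adjusted p of 0.01 left 11 higher in place of 17. Jak2 has no value among genes of at least 16 CPM, where the other 7 passed, as did 3825 of all 7401 such genes. Among genes named by rule, Bonferroni also ended the calls of Lif, Il11ra1, Pias1, Socs4, Pias2 and Grb2. No direction turned in any setting for the 8 genes or the others named here by rule. Only the 2 trend settings could have turned one. Thresholds and filters leave fold changes as deposited, and the median subtracted was smaller than each of these changes. The largest shift of the median of all genes by centring or a trend was under 0.01. Depth per library is unknown, so precision rests on the authors' p-values alone.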
